A study of Mus musculus with 8 samples.

Results

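The 10 genes described here encode secreted cytokines of 3 groups, namely the interleukin-1 family (Il1a, Il1b, Il1rn and Il33), the interleukin-6 family (Il6, Il11 and Lif) and the colony-stimulating factors (Csf1, Csf2 and Csf3). They were taken by symbol from a deposited table of 21878 genes, in which all 10 were listed once, and all 10 passed the filter on low values that left 11998 genes for testing. RNA sequencing had been done on 8 mouse libraries from lung, whose labels name pulmonary endothelial cells, 4 of them labelled Ad-KLK8 and 4 labelled Ad-control. The study is about the serine protease KLK8 (kallikrein-related peptidase 8) and injury of the lung endothelium in endotoxemia, and the comparison asked which transcripts differed between cells given Ad-KLK8 and cells given Ad-control. The labels do not expand the prefix Ad, name no strain, age, time or other agent for either group, and do not say whether the replicates came from separate cultures or animals. P-values therefore measure the spread between these samples alone, which may be technical.

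Interleukin-1α, interleukin-1β and interleukin-33 are agonists that act through receptors joined to the adaptor MyD88, and the interleukin-1 receptor antagonist occupies the same receptor without signalling. Interleukin-6, interleukin-11 and leukaemia inhibitory factor each bind their own receptor chain and signal through the shared subunit gp130 to STAT3, while the colony-stimulating factors drive the growth and survival of macrophages and granulocytes. In injured lung these cytokines are released by endothelial, stromal and epithelial cells as well as by leukocytes, and many of their mRNAs are induced by NF-kB and AP-1 and broken down quickly through AU-rich elements in their 3′ ends.

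Of the 10 genes, 9 were lower in the libraries labelled Ad-KLK8 and 1, Csf1, was higher (limma, adjusted p below 0.05 over all tested genes). Among all 11998 tested genes 52.0% were lower and 25.7% higher by the same test, so a fall of a single gene was common in this comparison. A fall of at least 2-fold on the scale of log2(RPKM + 1) was found for 7 of the 10, against 9.85% of all tested genes. The 10 genes were chosen with earlier results of these data known, so their shares beside all genes are a description only. In all 9 genes that were lower, every library labelled Ad-KLK8 lay below every library labelled Ad-control, which held for 49.1% of all tested genes in that direction. Csf2 and Il1b passed the filter through the libraries labelled Ad-control alone, being under 0.5 RPKM on average with the label Ad-KLK8, and a gene that passes in this way has to differ. The other 8 genes gave 7 lower and 1 higher. Csf2 and Il1b are also among the 7 genes with a fall of at least 2-fold, the rest being Il1a, Il1rn, Il33, Il6 and Il11. Both also enter the count without overlap and the medians that follow. The median change of the 10 was −1.41 on the log2 scale, where the median of all tested genes was −0.19. After median-of-ratios scaling the medians were −1.26 and 0.02, and the 10 genes again gave 9 lower and 1 higher, whereas the split over all genes became 4791 higher and 4479 lower in place of 3079 and 6243.

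Levels are RPKM (reads per kilobase of gene, scaled to the reads of the library), given for replicates 1 to 4 in turn. Means are ± SD over the 4 libraries of a group, and log2 changes are differences of log2(RPKM + 1) ± SE, a scale that understates the change of low genes. The libraries held 17785884 to 18702922 gene-assigned reads with the label Ad-KLK8 and 15771803 to 16761367 with the label Ad-control. Klk8, which could check the labels, did not separate them. It stood at 1159, 3263, 1354 and 1276 RPKM in the libraries labelled Ad-KLK8, against 1135, 1403, 1232 and 1422 RPKM in those labelled Ad-control. The mean log2 difference of 0.31 did not exceed the spread (two-sided exact permutation p = 0.657, the smallest possible being 0.0286), so the directions reported below depend on the labels. Ad-KLK8 replicate 2 also stood apart from the other 3 of its label, its chi-square over genes, divided by the degrees of freedom, being 18 to 19.6 against 2.12 to 2.63 among those 3, and results that move with it are given with and without it. Pairs with the label Ad-control differed by 2.45 to 10.5 on this measure, so no pair matched within counting noise.

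The labelled cell type was checked against its markers. Of 10 endothelial markers, 8 averaged under 0.5 RPKM, among them Cdh5 (VE-cadherin), with 3 reads in all libraries labelled Ad-KLK8 and 24 in all labelled Ad-control. The summed level of the 10 was 4.70 to 6.32 RPKM with the label Ad-KLK8 and 5.93 to 7.21 RPKM with the label Ad-control. Most of this sum was Egfl7, at 4.59 ± 0.651 RPKM with the label Ad-KLK8 and 4.54 ± 0.514 RPKM with the label Ad-control. So the markers as a set did not bear out the labelled cell type. In contrast, 8 fibroblast markers summed to 3818 to 3942 RPKM with the label Ad-KLK8 and 1676 to 1896 RPKM with the label Ad-control. All 8 fibroblast markers were higher with the label Ad-KLK8, and 5 of 6 mesothelial markers were higher and 1 lower. Among all tested genes 25.7% were higher and 52.0% lower. In bulk RNA such as this, fewer cells of a type and less RNA per cell cannot be told apart.

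The 3′ ends of the mRNAs differed in AU-rich content. Stretches are printed below for Csf2 and Il11, which fell most by ratio, for Lif and Il6, which fell less, and for Csf1, which was higher. Il33, Il1a, Il1b and Il1rn, which fell more than Il6 by ratio, and Csf3 are not printed. Each is the 30 bases of the 3′ untranslated region with the most ATTTA pentamers, which are in capitals, read from GENCODE M21 transcripts (for each gene, the principal transcript with the longest 3′ untranslated region).
Csf2: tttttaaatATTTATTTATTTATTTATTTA
Il11: acctgtggcttATTTAtacttATTTATTTA
Lif: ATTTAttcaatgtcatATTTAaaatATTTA
Il6: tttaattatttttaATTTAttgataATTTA
Csf1: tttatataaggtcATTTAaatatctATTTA

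Csf2 had the densest 3′ end, with 9 pentamers in 317 bases or 28.4 per kb, and Il6 had 6 in 427 bases or 14.1 per kb. Csf3, Il1b and Il11 had 8.97, 8.71 and 8.38 per kb. The other 5 lay lower, at 2.72 per kb for Il1a, 2.20 for Lif, 1.89 for Csf1, 1.79 for Il33 and 0 for Il1rn, beside a median of 1.20 over 20483 genes. The longer nonamer TTATTTATT occurred in 3 of the 10 genes, with 5 copies in Il11, 4 in Csf2 and 2 in Lif, and in 7.21% of the 20483 genes. Among 11436 tested genes with a 3′ sequence, 59.8% of the 881 that hold the nonamer were lower with the label Ad-KLK8 and 19.4% were higher, against 52.0% and 25.9% of the 11436. The median log2 change was −0.27 for the 881 genes and −0.19 for the 11436. Of the genes with the nonamer, Csf2 and Il11 had the lowest ratios between the labels of the 10 genes, and Lif was 1.71-fold lower. Il33 and Il1a, next by ratio at 6.27-fold and 5.94-fold lower with the label Ad-KLK8, held no nonamer. A part of AU-rich elements in these changes was not tested.

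The promoters of Il6 and Csf1 are shown because these are the most abundant of the 10 transcripts and moved in opposite directions. They are RefSeq sequences of build GRCm38.p6, each from 250 bases before to 50 bases after a start site and printed 5′ to 3′ on the gene's strand, with matches to the NF-kB consensus, the AP-1 motif TGANTCA and the C/EBP motif TTGCNNAA on either strand in capitals.
Il6 chr5:30012864-30013163 (+): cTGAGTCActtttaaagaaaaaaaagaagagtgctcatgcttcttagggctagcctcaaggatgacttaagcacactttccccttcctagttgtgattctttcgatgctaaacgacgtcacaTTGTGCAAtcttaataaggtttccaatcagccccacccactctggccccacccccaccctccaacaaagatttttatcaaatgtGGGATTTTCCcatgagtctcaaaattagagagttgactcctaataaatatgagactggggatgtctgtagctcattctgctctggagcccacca
Csf1 chr3:107760420-107760719 (-): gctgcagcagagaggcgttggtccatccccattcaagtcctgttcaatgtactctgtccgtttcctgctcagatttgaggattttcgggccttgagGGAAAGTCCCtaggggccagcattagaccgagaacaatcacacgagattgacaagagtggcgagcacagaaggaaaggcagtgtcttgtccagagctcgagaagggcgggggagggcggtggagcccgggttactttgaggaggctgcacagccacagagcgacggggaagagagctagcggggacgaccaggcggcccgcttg

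An NF-kB match began at position −44 of the Il6 promoter and at −154 of the Csf1 promoter, counted with the start site as 0. So the gene that was lower and the gene that was higher each held 1 such match. Il6 also held an AP-1 match at −249 and a C/EBP match at −128, and Csf1 held neither. RefSeq gave 13 promoters for 9 of the 10 genes (all but Csf3). No other promoter of the 13 matched the NF-kB consensus, which 5.80% of 32851 mouse promoters of this length hold. AP-1 matches were found in 5 of the 13 promoters, 1 each for Il1a, Il1rn, Il6, Il11 and Lif, and occur in 7.81% of the 32851. C/EBP matches were found in 3 of the 13 promoters, 1 each for Il33, Il6 and Csf2, and occur in 10.8% of the 32851. A match is a run of letters, not a shown binding site, and the motifs do not overlap one another in the printed sequences.

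Among the interleukin-1 agonists, Il1a, whose product is an alarmin active without cleavage, stood at 2.09, 1.6, 1.98 and 1.46 RPKM in the libraries labelled Ad-KLK8. In those labelled Ad-control it stood at 10.9, 12.0, 10.1 and 9.25 RPKM. The groups lay far apart and the replicates of each stood close together. The means were 1.78 ± 0.299 RPKM with the label Ad-KLK8 and 10.6 ± 1.17 RPKM with the label Ad-control, so the level was 5.94-fold lower with Ad-KLK8 (log2 change −2.06 ± 0.093, limma adjusted p = 1.58e-08). Only 129 tested genes fell further on this scale.

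Il1b encodes a precursor that is cut by caspase-1 before release, and its mRNA was scarcer than that of Il1a in every library. Its level was 0.551, 0.510, 0.204 and 0.303 RPKM with the label Ad-KLK8, and 2.16, 2.83, 2.47 and 1.33 RPKM with the label Ad-control. The groups did not overlap, although Ad-control replicate 4 was the lowest of its label. Behind these values were 76 reads in all libraries labelled Ad-KLK8 and 378 in those labelled Ad-control, and the rate of reads was 5.62-fold lower (95% exact interval 4.38 to 7.28, counting error only). The log2 change was −1.18 ± 0.147 (limma adjusted p = 2.73e-05), and it became −2.51 in a voom fit of the recovered reads, which adds less to low values. Il1b passed the filter through the libraries labelled Ad-control alone, so a difference was built into this test.

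The antagonist gene Il1rn was lower together with the agonists. It stood at 1.75, 2.17, 2.34 and 2.5 RPKM in the libraries labelled Ad-KLK8 and at 10.6, 8.57, 9.05 and 7.32 RPKM in those labelled Ad-control. Its level was 4.06-fold lower with the label Ad-KLK8, at 2.19 ± 0.325 RPKM with the label Ad-KLK8 and 8.88 ± 1.35 RPKM with the label Ad-control (log2 change −1.63 ± 0.105, limma adjusted p = 1.79e-07). The summed level of the agonists Il1a and Il1b over that of Il1rn was 1.51, 0.970, 0.935 and 0.703 with the label Ad-KLK8. It was 1.24, 1.73, 1.39 and 1.44 with the label Ad-control, and these ratios overlapped because of Ad-KLK8 replicate 1.

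Il33 encodes a nuclear alarmin released from damaged barrier and stromal cells, and by level it was the most abundant of the interleukin-1 family genes here. With the label Ad-KLK8 it measured 17.7, 7.78, 16 and 14 RPKM, against 78.9, 109.8, 82.8 and 75.8 RPKM with the label Ad-control. Replicate 2 was the lowest library of the label Ad-KLK8 and also the highest of the label Ad-control, and the groups stayed far apart. The means were 13.9 ± 4.32 RPKM with the label Ad-KLK8 and 86.8 ± 15.6 RPKM with the label Ad-control, 6.27-fold lower with the label Ad-KLK8 (log2 change −2.60 ± 0.211, limma adjusted p = 1.00e-06). The log2 change was −2.37 without Ad-KLK8 replicate 2 and −2.25 without both libraries numbered 2. By mean level Il33 ranked 4274 of all genes with the label Ad-KLK8 and 728 with the label Ad-control, and 46 tested genes (0.383%) fell further.

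**Figure D1:**
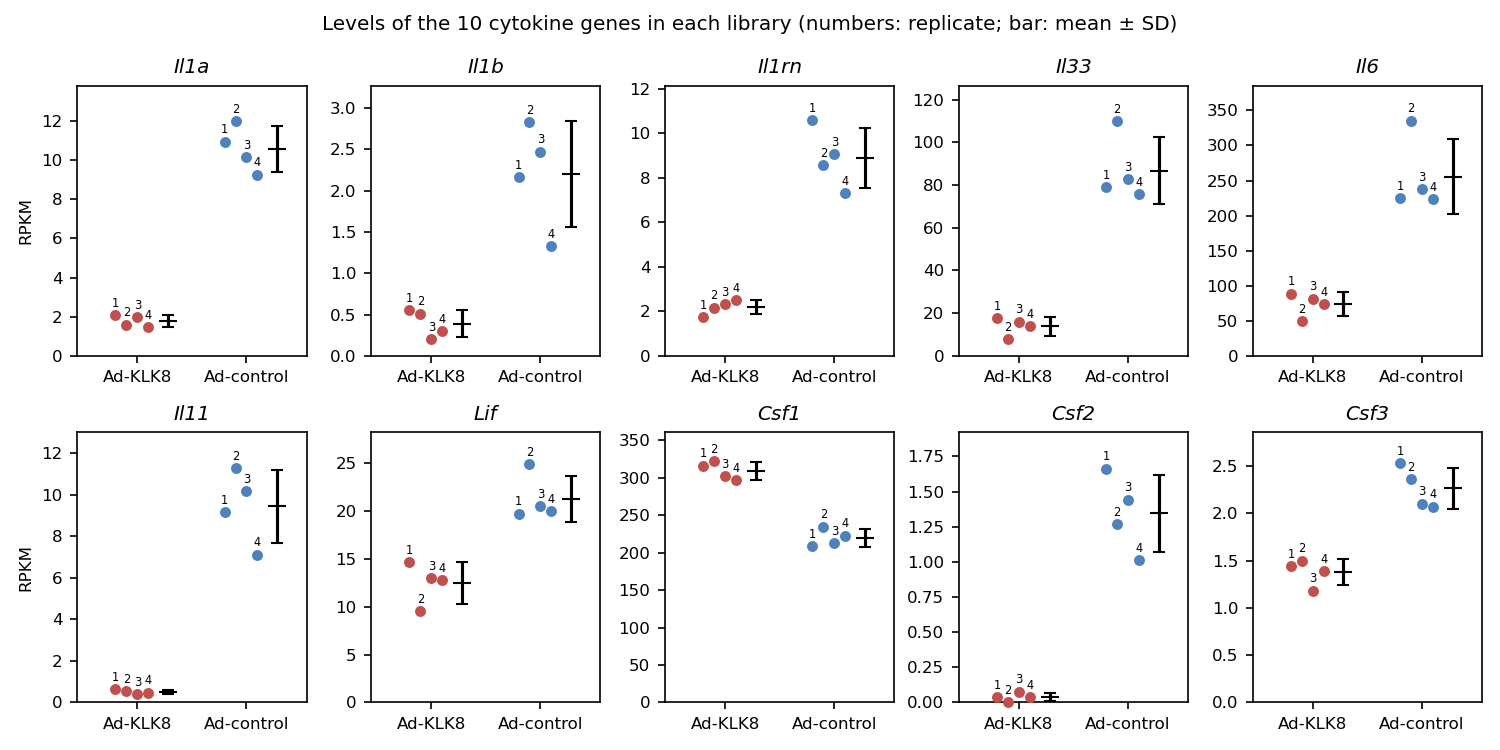
Level in RPKM (vertical axes, from 0, a scale for each gene) of the 10 cytokine genes in the 4 libraries labelled Ad-KLK8 (red) and the 4 labelled Ad-control (blue). Points are libraries, numbered by replicate, and bars are mean ± SD. In 9 panels every red point lies below every blue point, and for Csf1 the red points, at 297 to 322 RPKM, lie above the blue ones at 208 to 235 RPKM.

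In the interleukin-6 family, Il6, the cytokine that drives the acute-phase response, was abundant in both groups. Its level was 88.8, 49.5, 81.7 and 74.1 RPKM with the label Ad-KLK8, and 224.8, 335.5, 237.5 and 223.8 RPKM with the label Ad-control. Ad-KLK8 replicate 2 was the lowest and Ad-control replicate 2 the highest, while the other 3 libraries of each label stood close together. The means of 73.5 ± 17.1 RPKM with the label Ad-KLK8 and 255 ± 53.8 RPKM with the label Ad-control differed 3.48-fold (log2 change −1.80 ± 0.180, limma adjusted p = 5.20e-06). The log2 change was −1.62 without Ad-KLK8 replicate 2 and −1.48 without both libraries numbered 2. By mean level Il6 ranked 853 among all genes with the label Ad-KLK8 and 199 with the label Ad-control.

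Il11, a cytokine of stromal cells that acts on fibroblasts and epithelium, had the largest change of the 10 on the log2(RPKM + 1) scale, while by ratio Csf2 was lower still. It stood at 0.641, 0.528, 0.400 and 0.476 RPKM in the libraries labelled Ad-KLK8, and at 9.17, 11.3, 10.2 and 7.13 RPKM in those labelled Ad-control. Every library labelled Ad-KLK8 was near the lower end of detection, with 15 to 24 reads, against 234 to 360 reads per library labelled Ad-control. The means were 0.511 ± 0.101 RPKM with the label Ad-KLK8 and 9.44 ± 1.77 RPKM with the label Ad-control, 18.5-fold lower with the label Ad-KLK8, and the rate of reads gave 18.5-fold with a 95% exact interval of 14.6 to 23.6. The log2 change was −2.78 ± 0.115 (limma adjusted p = 9.50e-09), or −4.17 in the voom fit of the reads. Only 33 tested genes (0.275%) fell further on the log2(RPKM + 1) scale.

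Lif encodes leukaemia inhibitory factor, which acts through the LIF receptor and gp130, and it changed least in this family. Its level was 14.7, 9.52, 13.0 and 12.8 RPKM with the label Ad-KLK8 against 19.8, 24.9, 20.51 and 20.04 RPKM with the label Ad-control. Replicate 2 was again the lowest of one label and the highest of the other. The means of 12.5 ± 2.15 RPKM with the label Ad-KLK8 and 21.3 ± 2.42 RPKM with the label Ad-control differed 1.71-fold (log2 change −0.73 ± 0.115, limma adjusted p = 0.000163). The change was −0.62 without Ad-KLK8 replicate 2, −0.54 without both libraries numbered 2 and −0.50 after median-of-ratios scaling, and 2179 tested genes fell further.

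Csf1, the gene of macrophage colony-stimulating factor, was the only one of the 10 that was higher, and it was among the most abundant transcripts of all. It stood at 316.2, 321.9, 302.1 and 296.6 RPKM in the libraries labelled Ad-KLK8, and at 208.2, 234.8, 212.8 and 222.6 RPKM in those labelled Ad-control. The spread within each label was small and the ranges did not overlap. The means were 309 ± 11.8 RPKM with the label Ad-KLK8 and 220 ± 11.8 RPKM with the label Ad-control, a ratio of 1.41 (log2 change 0.49 ± 0.049, limma adjusted p = 5.24e-06). Median-of-ratios scaling gave a change of 0.74. A larger rise was found for 10.5% of all tested genes, and by mean level Csf1 ranked 182 with the label Ad-KLK8 and 231 with the label Ad-control.

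Csf2 encodes granulocyte-macrophage colony-stimulating factor and nearly vanished from the libraries labelled Ad-KLK8. Its level there was 0.0386, 0, 0.0771 and 0.0382 RPKM, from 1, 0, 2 and 1 reads. In the libraries labelled Ad-control it was 1.66, 1.27, 1.44 and 1.013 RPKM, from 39, 28, 33 and 23 reads. The 0 reads of Ad-KLK8 replicate 2 allow a level of up to 0.12 RPKM, counting error only, which is below the lowest library labelled Ad-control. In all, the libraries labelled Ad-KLK8 held 4 reads and those labelled Ad-control 123, a rate 34.7-fold lower with a 95% exact interval of 13.2 to 129.5 (counting error only). The log2 change of −1.17 ± 0.088 (limma adjusted p = 5.67e-07) is compressed by the pseudocount of 1 and was −4.75 in the voom fit. Csf2 passed the filter through the libraries labelled Ad-control alone, so a difference was built into this test. The reads of Csf2 are the smallest whole numbers in the ratios of the deposited values, which is less certain for a gene with 0 reads in some library. The true reads could be a common multiple of them, which would leave the ratio as it is and change the interval.

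Csf3 encodes granulocyte colony-stimulating factor and had the smallest log2 fall of the 9 genes. Its level was 1.44, 1.499, 1.18 and 1.39 RPKM with the label Ad-KLK8 and 2.53, 2.36, 2.10 and 2.07 RPKM with the label Ad-control. The groups did not overlap, but 3773 tested genes (31.4%) fell further. The means of 1.38 ± 0.138 RPKM with the label Ad-KLK8 and 2.27 ± 0.218 RPKM with the label Ad-control differed 1.65-fold (log2 change −0.46 ± 0.071, limma adjusted p = 0.000146). The change was −0.30 after median-of-ratios scaling and −0.72 in the voom fit.

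**Figure D2:**
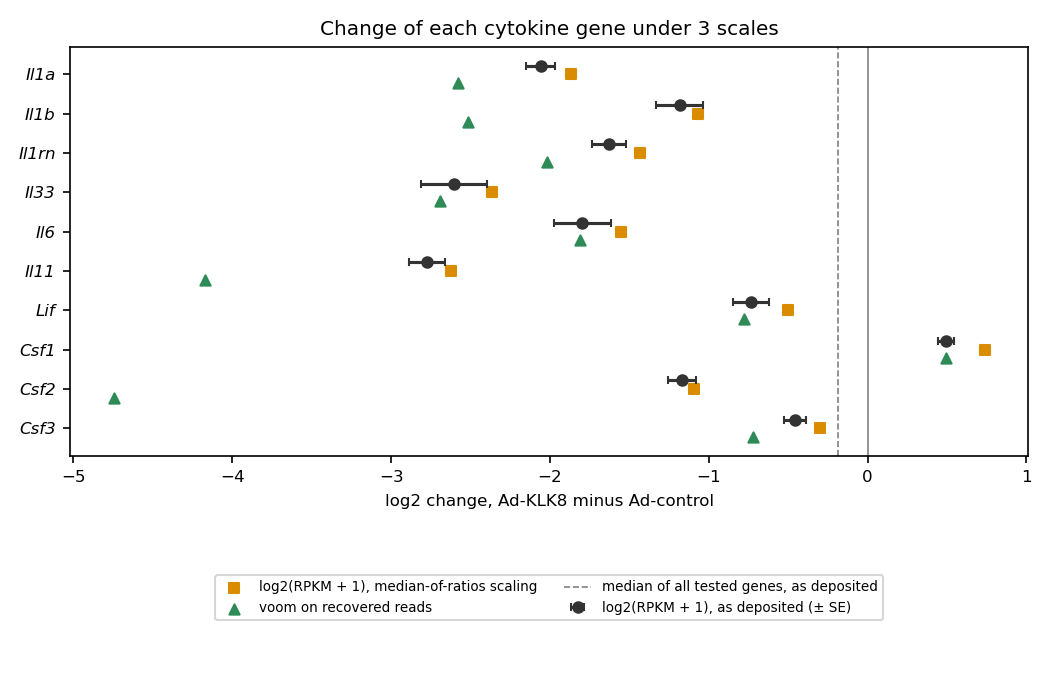
Log2 change, Ad-KLK8 minus Ad-control (horizontal axis), of the 10 genes as deposited (black, ± SE), after median-of-ratios scaling (orange squares) and in a voom fit of recovered reads (green triangles). The dashed line marks the median of all tested genes, −0.19. All scales put 9 genes below 0 and Csf1 above it, and the voom values lie furthest out for Csf2 (−4.75) and Il11 (−4.17).

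Since Csf1 was higher while the others were lower, the make-up of these cytokine transcripts differed between the labels. The 10 genes summed to 415 ± 21.4 RPKM with the label Ad-KLK8 and 618 ± 84.2 RPKM with the label Ad-control. Without Csf1 the other 9 summed to 106 ± 23.6 RPKM with the label Ad-KLK8 and 398 ± 74.5 RPKM with the label Ad-control. Csf1 held 74.6 ± 4.70% of the sum with the label Ad-KLK8 and 35.8 ± 3.10% with the label Ad-control. The share of Il6 was 17.6 ± 3.45% with the label Ad-KLK8 and 41.1 ± 2.75% with the label Ad-control. That of Il33 was 3.31 ± 0.919% with Ad-KLK8 and 14.0 ± 0.612% with Ad-control. Csf1 stood at 3.56, 6.5, 3.7 and 4.01 times the level of Il6 in the libraries labelled Ad-KLK8, and at 0.926, 0.700, 0.896 and 0.995 times that level in those labelled Ad-control. These ratios within a library do not depend on a scaling factor applied to the whole library.

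**Figure D3:**
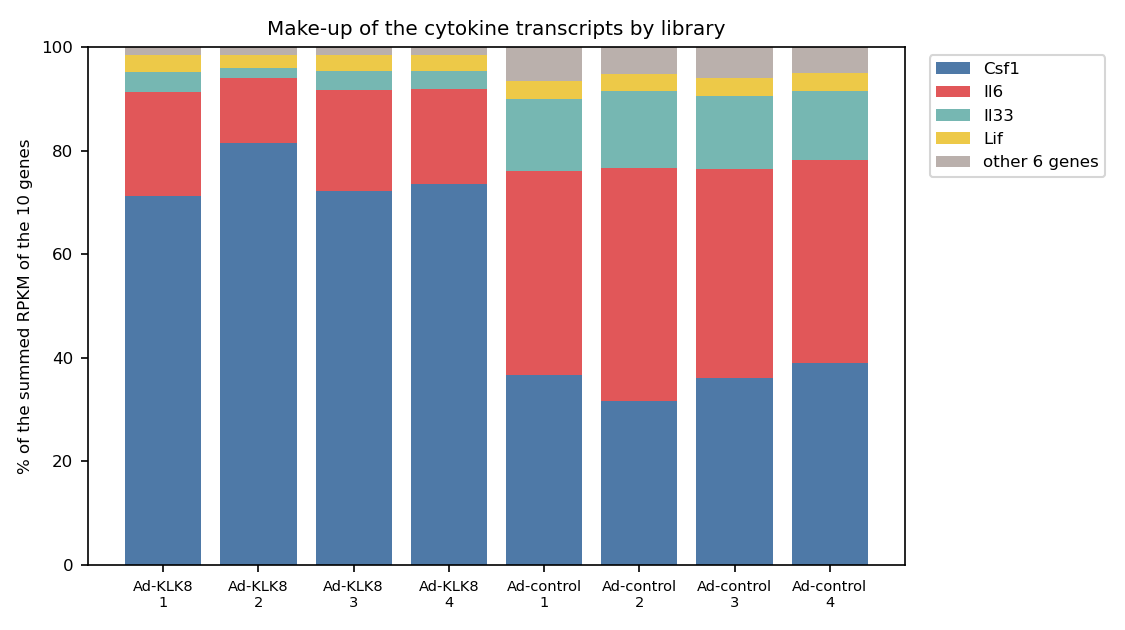
Percent of the summed RPKM of the 10 cytokine genes (vertical axis) held by Csf1, Il6, Il33, Lif and the other 6 genes in each library, with the 4 libraries labelled Ad-KLK8 on the left. Csf1 holds 71.3% to 81.5% in these and 31.6% to 39.0% in the 4 labelled Ad-control.

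The order of levels also differed. With the label Ad-KLK8 it ran Csf1, Il6, Il33, Lif, Il1rn, Il1a, Csf3, Il11, Il1b and Csf2, in which the ranges of Il33 and Lif overlapped, as did those of Il1rn and Il1a, of Il1a and Csf3, and of Il11 and Il1b. With the label Ad-control it ran Il6, Csf1, Il33, Lif, Il1a, Il11, Il1rn, Csf3, Il1b and Csf2. There the ranges of Il6 and Csf1 overlapped, as did those of Il1a, Il11 and Il1rn, of Csf3 and Il1b, and of Il1b and Csf2.

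Within a label the genes did not all spread alike. Il33, Il6 and Lif shared the same lowest library, Ad-KLK8 replicate 2, which had the highest Klk8 at 3263 RPKM, and the same highest library, Ad-control replicate 2. Il1a, Il1b, Il11 and Csf1 were highest in Ad-control replicate 2 as well. In Ad-KLK8 replicate 2, however, Il11 lay within 0.03 log2 units of its group median and Csf1 was at its highest of that label. Csf1 varied by less than 0.2 log2 units within either label. A part of Ad-KLK8 replicate 2 in these falls was not tested beyond leaving it out, which kept all 10 calls.

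**Figure D4:**
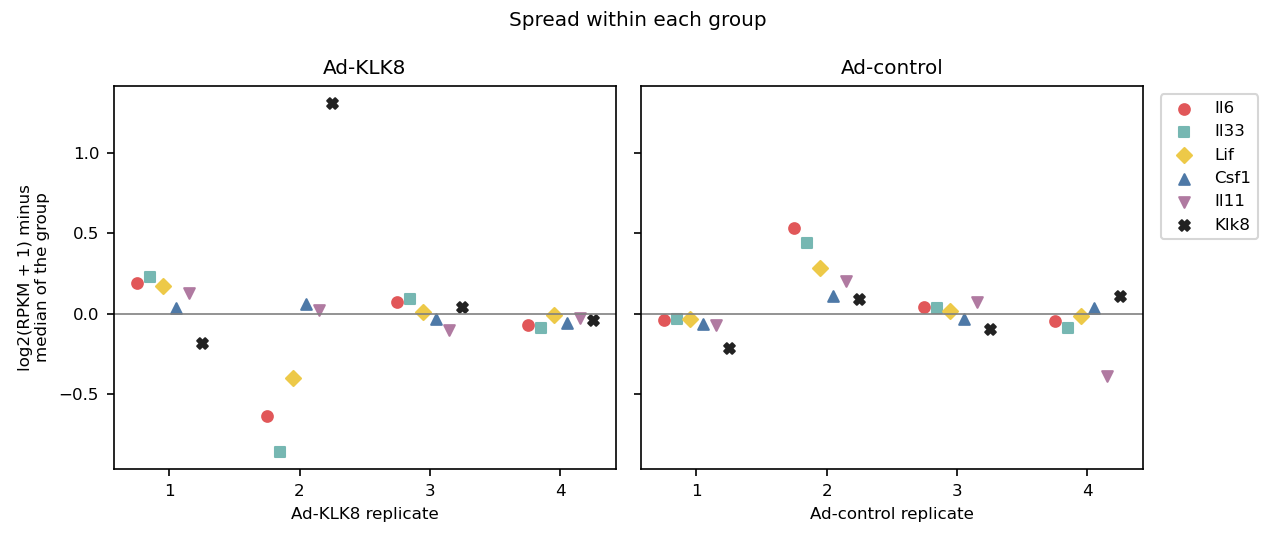
Deviation of log2(RPKM + 1) from the group median (vertical axis) in each library, by replicate number, with Ad-KLK8 on the left and Ad-control on the right, for Il6, Il33, Lif, Csf1, Il11 and Klk8. In Ad-KLK8 replicate 2, Il33 (−0.86), Il6 (−0.64) and Lif lie lowest and Klk8 highest, and in Ad-control replicate 2 Il6 (0.54) and Il33 (0.44) lie highest.

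Genes with the most similar pattern over the 8 libraries were looked up for the most abundant gene and for the gene with the largest change on the log2(RPKM + 1) scale, as a description. For Csf1 these were Ppib (Pearson r = 0.997), P3h1 and Dok4 (both r = 0.994), and 82 tested genes reached r of 0.98 or more. For Il11 they were Knop1, Serpinb2 and Prpf31 (r = 0.999 each), and 1585 genes reached r of 0.98. Much of each r comes from the difference between the 2 labels, which many genes share.

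Other ligands of these families moved both ways. Of 20 listed, 18 were matched in the table and 8 were tested, with 4 higher and 4 lower (3 lower after median-of-ratios scaling). This count and those of the lists below stand beside 25.7% higher and 52.0% lower among all tested genes. Kitl, the ligand of the receptor Kit, was lower, at 13.5 ± 1.32 RPKM with the label Ad-KLK8 against 37.6 ± 1.86 RPKM with the label Ad-control (log2 change −1.42, limma adjusted p = 1.82e-08). Il34, the second ligand of the Csf1 receptor, was higher, at 1.57 ± 0.0767 RPKM with the label Ad-KLK8 against 0.731 ± 0.219 RPKM with the label Ad-control (log2 change 0.58, limma adjusted p = 0.00018). Il18, an interleukin-1 family cytokine, was higher, at 4.42 ± 0.241 RPKM with the label Ad-KLK8 against 2.73 ± 0.157 RPKM with the label Ad-control (log2 change 0.54, limma adjusted p = 7.91e-06), and Ctf1 (cardiotrophin-1), which signals through gp130, had a log2 change of 0.73 (limma adjusted p = 5.14e-06). So the fall of the 9 genes was not shared by every ligand of their families.

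Of 8 receptors for interleukin-1 and interleukin-33, 5 were tested, with 2 higher, 2 lower and 1 not past the threshold (median log2 change −0.03). Il1r1, the signalling receptor for interleukin-1α and interleukin-1β, was higher, at 55.8 ± 4.69 RPKM with the label Ad-KLK8 against 29.1 ± 2.77 RPKM with the label Ad-control (log2 change 0.92 ± 0.074, limma adjusted p = 1.01e-06). Il1rl1, which encodes the interleukin-33 receptor ST2, was lower, at 0.135 ± 0.0125 RPKM with the label Ad-KLK8 against 1.37 ± 0.426 RPKM with the label Ad-control, where alone it passed the filter, from 74 and 663 reads in all (log2 change −1.04 ± 0.122, limma adjusted p = 1.74e-05). Il1rap, the accessory chain that both receptors share, had 6.96 ± 0.345 RPKM with the label Ad-KLK8 and 7.11 ± 0.283 RPKM with the label Ad-control (log2 change −0.03, limma adjusted p = 0.631), a value that became 0.19 (adjusted p = 0.00656) after median-of-ratios scaling. Il18rap, of the interleukin-18 receptor, had a log2 change of −0.47 and Il1rl2, of the interleukin-36 receptor, one of 0.35 (limma adjusted p = 0.000581 and 0.00164).

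Receptors of the interleukin-6 family were mostly higher: of 7 tested, 4 were higher, 1 was lower and 2 did not pass (median log2 change 0.47). After median-of-ratios scaling 5 were higher and 0 lower. The lower gene, Il27ra, named after its values were seen, averaged 0.464 RPKM with the label Ad-KLK8 and 0.834 RPKM with the label Ad-control. It passed the filter through Ad-control alone. Its call (limma adjusted p = 0.038) was lost after median-of-ratios scaling (adjusted p = 0.129) and without Ad-KLK8 replicate 2 (adjusted p = 0.087). Il6st, the gp130 subunit on which Il6, Il11 and Lif all depend, stood at 113.5, 111.0, 114.3 and 117.3 RPKM with the label Ad-KLK8 and 61.5, 56.4, 58.1 and 61.2 RPKM with the label Ad-control (log2 change 0.93 ± 0.040, limma adjusted p = 1.15e-08). Lifr, of the LIF receptor, was higher, at 3.98 ± 0.335 RPKM with the label Ad-KLK8 against 2.10 ± 0.181 RPKM with the label Ad-control (log2 change 0.68, limma adjusted p = 5.24e-06), and Osmr, of the oncostatin M receptor, at 41.2 ± 1.14 RPKM with the label Ad-KLK8 and 25.1 ± 0.620 RPKM with the label Ad-control (log2 change 0.69, limma adjusted p = 4.74e-08). Il11ra1, the interleukin-11 receptor, had 15.7 ± 1.31 RPKM with the label Ad-KLK8 and 11.1 ± 0.611 RPKM with the label Ad-control (log2 change 0.47, limma adjusted p = 4.79e-05), a value that is uncertain because mouse carries near-identical copies of this gene. Il6ra, the interleukin-6 receptor, had 2.98 ± 0.308 RPKM with the label Ad-KLK8 and 2.64 ± 0.366 RPKM with the label Ad-control and did not pass (log2 change 0.13, limma adjusted p = 0.187), but it passed after median-of-ratios scaling at 0.31 (adjusted p = 0.00554). Thus Il11 and Lif were lower while their receptor genes were higher in the same libraries.

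Receptors of the colony-stimulating factors were low throughout. Of 7, 4 were tested, with 3 lower and 1 not past the threshold, and a median log2 change of −0.34. Csf1r stood at 3.94, 3.94, 3.83 and 3.62 RPKM with the label Ad-KLK8 and at 6.52, 4.31, 5.08 and 4.09 RPKM with the label Ad-control (log2 change −0.30, limma adjusted p = 0.0282). That call was lost after median-of-ratios scaling (−0.09, adjusted p = 0.417), without the filter (adjusted p = 0.0533), and without Ad-KLK8 replicate 3, Ad-KLK8 replicate 4 or Ad-control replicate 3 (adjusted p = 0.0544, 0.0677 and 0.0597). Csf2rb, the shared beta chain, had 0.581 ± 0.150 RPKM with the label Ad-KLK8 and 1.20 ± 0.318 RPKM with the label Ad-control (log2 change −0.47, limma adjusted p = 0.00259), and its near copy Csf2rb2 had a log2 change of −0.38 (limma adjusted p = 0.013), so the reads of both are uncertain. Csf2rb2 averaged 0.299 RPKM with the label Ad-KLK8 and 0.716 RPKM with the label Ad-control. It passed the filter through Ad-control alone and had to differ. Csf2ra, the Csf2-binding chain, had 0.994 ± 0.173 RPKM with the label Ad-KLK8 and 1.23 ± 0.126 RPKM with the label Ad-control and did not pass (limma adjusted p = 0.0808), though it passed without Ad-KLK8 replicate 2 (log2 change −0.21, adjusted p = 0.0385) and in the voom fit. Csf3r was below the filter, with 43 reads in the libraries labelled Ad-KLK8 and 41 in those labelled Ad-control.

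**Figure D5:**
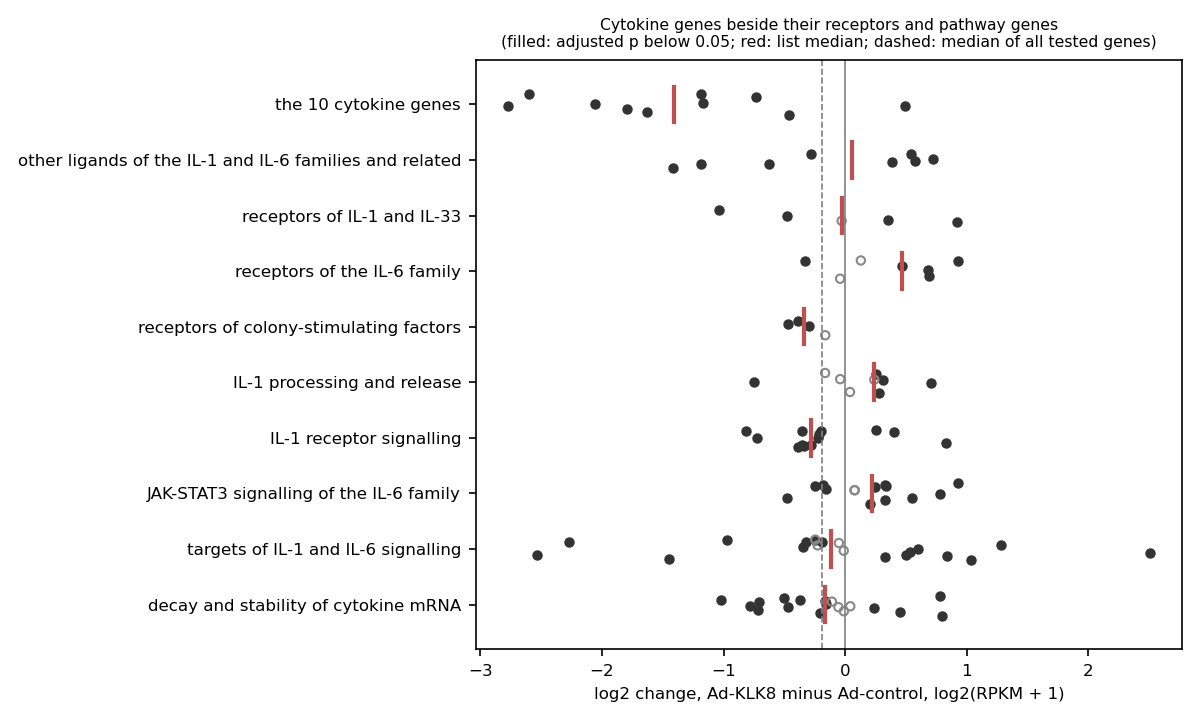
Log2 change, Ad-KLK8 minus Ad-control (horizontal axis), of each tested gene of the 10 cytokines and of 9 lists of related genes (rows). Filled points passed limma's adjusted p of 0.05, open points did not, red bars are list medians and the dashed line is the median of all tested genes, −0.19. The cytokine median of −1.41 lies left of the medians of the 9 lists, of which the highest is that of the interleukin-6 family receptors at 0.47. Genes of all rows were chosen with earlier results of these data known.

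Of 14 genes for the processing and release of interleukin-1, 9 were tested, with 4 higher, 1 lower and 4 not past the threshold. Gsdmd, the pore through which mature interleukin-1β leaves the cell, was higher, at 43.5 ± 4.58 RPKM with the label Ad-KLK8 against 26.2 ± 0.734 RPKM with the label Ad-control (log2 change 0.70, limma adjusted p = 4.46e-06). Casp8, a caspase that can cut the interleukin-1β precursor, was lower, at 14.2 ± 1.21 RPKM with the label Ad-KLK8 against 24.6 ± 1.41 RPKM with the label Ad-control (log2 change −0.75, limma adjusted p = 1.34e-06). Tmed10, a carrier for leaderless secretion, and Ninj1, which ruptures the plasma membrane, had log2 changes of 0.26 and 0.31 (limma adjusted p = 5.82e-05 and 0.00035). After median-of-ratios scaling 7 were higher and 1 lower.

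All 13 tested genes of interleukin-1 receptor signalling passed the threshold, 10 lower and 3 higher, with 5 lower and 3 higher after median-of-ratios scaling. Myd88, the adaptor that binds the receptors, was higher, at 40.2 ± 1.95 RPKM with the label Ad-KLK8 against 22.2 ± 1.97 RPKM with the label Ad-control (log2 change 0.83, limma adjusted p = 6.50e-07). Peli1, a ubiquitin ligase of the receptor complex, was lower, at 9.09 ± 0.672 RPKM with the label Ad-KLK8 against 16.8 ± 0.832 RPKM with the label Ad-control (log2 change −0.82, limma adjusted p = 3.99e-07). Irak3, an inhibitor of the pathway, was lower, at 4.22 ± 0.446 RPKM with the label Ad-KLK8 against 7.59 ± 0.0405 RPKM with the label Ad-control (log2 change −0.72, limma adjusted p = 1.90e-06). Tab2, an adaptor of the kinase TAK1, had a log2 change of −0.36 (limma adjusted p = 9.30e-06) that shrank to −0.12 after median-of-ratios scaling.

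In the JAK-STAT3 list of 14 tested genes, which includes Il6st, 8 were higher, 4 were lower and 2 did not pass, against 10 higher and 1 lower after median-of-ratios scaling. Stat3, the transcription factor that gp130 activates, was higher, at 80.0 ± 2.16 RPKM with the label Ad-KLK8 against 54.5 ± 2.53 RPKM with the label Ad-control (log2 change 0.55, limma adjusted p = 7.03e-07). Tyk2, a kinase bound to these receptors, had a log2 change of 0.33, and Socs2, a feedback inhibitor of cytokine receptors, one of −0.48 (limma adjusted p = 5.24e-05 and 3.98e-05).

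Genes known as targets of interleukin-1 and interleukin-6 signalling moved both ways. Of 20 tested, 8 were higher, 8 lower and 4 did not pass, where 25.7% of all tested genes were higher and 52.0% lower. After median-of-ratios scaling 9 of the 20 were higher and 4 lower, beside 4791 higher and 4479 lower among all 11998 tested genes. Ptgs2, which encodes cyclooxygenase-2, stood at 51.04, 27.6, 45.7 and 39.5 RPKM with the label Ad-KLK8 and at 189.8, 203.4, 206.6 and 188.3 RPKM with the label Ad-control (log2 change −2.27, limma adjusted p = 2.14e-07). Tnfaip3, an NF-kB feedback inhibitor, was lower, at 27.7 ± 3.24 RPKM with the label Ad-KLK8 against 77.2 ± 10.5 RPKM with the label Ad-control (log2 change −1.45, limma adjusted p = 3.13e-07). Cebpd, a transcription factor of the acute-phase response, was higher, at 94.9 ± 8.96 RPKM with the label Ad-KLK8 against 45.6 ± 2.79 RPKM with the label Ad-control (log2 change 1.04, limma adjusted p = 1.75e-07), and Bcl3, a nuclear partner of NF-kB, had 49.6 ± 0.83 RPKM with the label Ad-KLK8 and 32.4 ± 0.856 RPKM with the label Ad-control (log2 change 0.60, limma adjusted p = 8.68e-08). The ends of this list in the plot of related genes, named after their values were seen, were the chemokine gene Cxcl2 with a log2 change of −2.54 and the metalloreductase gene Steap4 with 2.51.

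Of 18 genes that bind or break down cytokine mRNA, 10 were lower, 4 higher and 4 did not pass. Among all tested genes the shares were 52.0% lower and 25.7% higher. After median-of-ratios scaling 6 of the 18 were lower and 7 higher. Zc3h12a, the endonuclease regnase-1 that cleaves Il6 mRNA, was higher, at 34.1 ± 1.51 RPKM with the label Ad-KLK8 against 19.2 ± 1.1 RPKM with the label Ad-control (log2 change 0.80, limma adjusted p = 1.44e-07). Hnrnpd, the AU-rich element binding protein AUF1, was lower, at 9.01 ± 0.335 RPKM with the label Ad-KLK8 against 19.3 ± 0.341 RPKM with the label Ad-control (log2 change −1.02, limma adjusted p = 7.83e-09). Elavl1, the protein HuR that stabilises such mRNAs, was lower, at 13.0 ± 0.738 RPKM with the label Ad-KLK8 against 21.8 ± 0.949 RPKM with the label Ad-control (log2 change −0.71, limma adjusted p = 3.78e-07). Tial1, a translational repressor that binds AU-rich elements, had a log2 change of −0.78 (limma adjusted p = 1.54e-07).

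Tested markers of leukocytes were mostly lower with the label Ad-KLK8, a direction that 52.0% of all tested genes shared. Of 12 macrophage and monocyte markers 10 were tested, with 6 lower, 1 higher and 3 not past the threshold, and 2 lower and 1 higher after median-of-ratios scaling. Their summed level was 220.5 to 286.2 RPKM in the libraries labelled Ad-KLK8 and 158.3 to 331.7 RPKM in those labelled Ad-control. The largest part of it was Cd14 with the label Ad-KLK8 and Lyz2 with the label Ad-control, which moved in opposite directions. Cd14, which fibroblasts and other cells also express, was the higher one (149 ± 12.2 RPKM with the label Ad-KLK8 and 37.6 ± 7.14 RPKM with the label Ad-control), while Cd68 had 11.3 ± 1.37 RPKM with the label Ad-KLK8 and 23.95 ± 5.80 RPKM with the label Ad-control, and Lyz2 had 74.5 ± 14.6 RPKM with the label Ad-KLK8 and 141 ± 53.1 RPKM with the label Ad-control. Ptprc, which all leukocytes express, averaged 0.352 RPKM with the label Ad-KLK8 and 0.516 RPKM with the label Ad-control and was below the filter, and the 3 leukocyte markers tested, Cd52, Coro1a and Laptm5, were all lower (1 of them, Cd52, after median-of-ratios scaling). The call of Coro1a was also lost without Ad-KLK8 replicate 3 or Ad-control replicate 1, and that of Laptm5 without Ad-KLK8 replicate 1, Ad-control replicate 1 or Ad-control replicate 3. Of 7 neutrophil markers only S100a8 was tested and it was lower, with 12 reads in the libraries labelled Ad-KLK8 and 39 in those labelled Ad-control. It averaged 0.414 RPKM with the label Ad-KLK8 and 1.52 RPKM with the label Ad-control. So S100a8 passed the filter through Ad-control alone and had to differ. All 7 neutrophil markers summed to 93 reads with the label Ad-KLK8 and 104 with the label Ad-control. None of 9 lymphocyte or 5 mast cell markers reached the filter, and 4 of each were at 0 in every library.

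Within the label Ad-control, Lyz2 stood at 207.1, 108.5, 160.5 and 89.4 RPKM and Marco, a macrophage scavenger receptor, at 16.04, 9.07, 11.7 and 6.92 RPKM, both highest in replicate 1 and then in 3, 2 and 4. Il1rn and Csf2 fell in that same order of libraries, noted after their values were seen. Il1a, Il1b, Il33, Il6, Il11, Lif and Csf1 were instead highest in replicate 2, and Csf3 in replicate 1. With the label Ad-KLK8, Lyz2, Marco and Il1rn were all lowest in replicate 1, at 55.1, 4.33 and 1.75 RPKM. In that same library Il1a, Il1b, Il33, Il6, Il11 and Lif were at their highest of the label. Lyz2 and Marco were highest in Ad-KLK8 replicate 2 and Il1rn in Ad-KLK8 replicate 4. Csf2, with 1, 0, 2 and 1 reads, was too low in these libraries to be put in order. The part of macrophages or of the fibroblast and mesothelial markers in the cytokine changes was not tested. Tcf21, Lum, Dcn and Pdgfrb, the fibroblast markers with the smallest adjusted p, had log2 changes of 2.82, 3.27, 1.82 and 1.09. Of the mesothelial markers Upk3b, Lrrn4 and Upk1b were higher by 2.53, 2.55 and 1.47, and Krt19 had −3.68. Krt8 was higher by 0.75 and was the 1 of 4 tested epithelial markers past the threshold, and Kdr, of 2 tested endothelial markers, had −0.60.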

How the data were processed

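The authors deposited 1 table of RPKM values, with a column per library. The submitters' processing notes list the tools HISAT2, Cufflinks, Trimmomatic, SAMtools and DESeq and the human build GRCh38, whereas the symbols and gene identifiers are those of mouse, so no coordinates come from the table. Per the labels' protocols the libraries were made from TRIzol RNA with a stranded mRNA kit. The sources used here do not give how strand and gene families were treated in counting.

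From the deposited RPKM values whole reads were recovered for all 17461 genes above 0, within 0.001 read, as the smallest whole numbers that fit. They are less certain for genes with 0 reads in some library, such as Csf2. Groups were compared with limma 3.58.1 under R 4.3.3 (lmFit and eBayes with trend, group as the only term). The values were log2(RPKM + 1) of the 11998 genes averaging 0.5 RPKM or more, and the threshold was a two-sided p of 0.05 after Benjamini-Hochberg adjustment over all of these. The same fit was run on simulated reads of 11998 genes at a dispersion of 0.01. It recovered 18% of 1.25-fold changes, 82% of 1.5-fold and 100% of 2-fold changes, with 5.06% of calls false. Few genes changed in that simulation, up and down alike, so it does not cover a shift of most genes as in these data. Exact intervals are Clopper-Pearson intervals of the split of reads given the library totals, at 95%, and a count of 0 was bounded by 3 reads. Python 3.11.15, pandas 2.3.3 and scipy 1.17.1 were used.

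The members and lists were chosen with earlier results of these data known. Named genes are the 10 members, Klk8, 12 receptor subunits, up to 4 genes with the smallest adjusted p from each list, and the 3 genes most similar to the most abundant and to the most changed member on the log2(RPKM + 1) scale. Alternatives were other pseudocounts and filters, median-of-ratios and upper-quartile scaling, voom on recovered reads, a replicate block and leaving out each library. A fit without both libraries numbered 2 was added after seeing the data. For 3′ ends 1 transcript per gene was read, and promoters were matched by symbol.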

Additional observations from a re-analysis of the deposited data

Results flagged for a closer look

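In 5 of 132 groups of 4 libraries 1 library lay far from the other 3, with a gap above Dixon's 95% critical value for 4 values. Chance alone flags about 1 in 20 groups. Il6 in Ad-control replicate 2 was 335.5 RPKM, where the other 3 libraries of that label had 223.8 to 237.5 RPKM. Lif in the same library was 24.9 RPKM, beside 19.8 to 20.5 RPKM in the other 3. Ad-KLK8 replicate 2 gave the other 3 values. Klk8 was 3263 RPKM there and 1159 to 1354 RPKM in the rest of that label, Cebpd was 108.2 RPKM beside 88.5 to 91.8 RPKM, and Myd88 was 37.3 RPKM beside 41.0 to 41.3 RPKM. No cause of these values was tested. Without Ad-KLK8 replicate 2 the log2 change of Il6 was −1.62 and that of Lif −0.62, both still past the threshold.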

How the results depend on the processing

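All 159 alternative values of the 10 cytokine genes kept their direction and stayed past the adjusted p of 0.05, under 15 alternatives for Csf2, which has no value at a minimum of 1 RPKM, and 16 for the others. An alternative moved the log2 change by over 1.5 times for Csf2 (−4.75 to −1.09), Il11 (−4.17 to −2.62), Il1b (−2.51 to −1.07) and Csf3 (−0.72 to −0.30), and the lowest values came from the voom fit, which called 3063 genes of all tested higher and 6268 lower. Of 1046 alternative values of single genes, 1019 kept their direction and side of the threshold. Median-of-ratios and upper-quartile scaling moved the genes called higher from 3079 to 4791 and 4784, and the genes of the related lists called lower from 43 to 24 and 24, since both factors shift all log2 changes upward. They also turned Il1rap from −0.03 to 0.19 and 0.19. Leaving out each library in turn, the log2 difference of Klk8 ranged from −0.036, without Ad-KLK8 replicate 2, to 0.46. Same-numbered libraries deviated together in no common way (correlations of −0.0905, −0.0656, 0.0106 and −0.0481), so the numbers were not taken as pairs. With a replicate block 3007 genes were higher and 6163 lower, and the 10 cytokine genes gave 1 higher and 9 lower. Among the genes named by rule only Laptm5 lost its call (limma adjusted p = 0.0659). Depth limits Csf2 (4 reads), Il1b and Il11 (76 reads each) with the label Ad-KLK8.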
